A study of Mus musculus with 12 samples.

Results

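The subject here is a group of 10 genes that encode AP-1 and immediate early factors: the FOS family (Fos, Fosb, Fosl1 and Fosl2), the JUN family (Jun, Junb and Jund), the zinc finger factor Egr1, the early response gene Ier3 and the oncogene Myc. They were chosen by symbol, with earlier results of these data known, and each matched 1 of the 55487 gene rows of the deposited count table. All 10 passed the filter on low counts, as did 16808 genes in all. RNA had been sequenced from Min6 cells, a mouse insulinoma line derived from beta cells of a transgenic mouse that carries the SV40 large T antigen under the insulin promoter. The cells were exposed for 48 h to the solvent DMSO, to 1 µM of the FoxO1 inhibitor AS1842856 (FoxOi), to 5 µM loperamide, an opioid receptor agonist, or to the inhibitor and loperamide at those same doses (FoxOi_Loperamide). Each of the 4 groups held 3 libraries, 12 in all. The labels do not say whether these came from separate cultures, so the p-values measure the spread between these libraries, which may be technical.

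AP-1 is a dimer of basic leucine zipper proteins: a FOS protein must pair with a JUN protein to bind DNA, whereas JUN proteins can also pair with each other. Immediate early genes are transcribed within minutes of a stimulus without new protein synthesis, through factors such as SRF, the ELK proteins and CREB that MAP kinases and calcium or cAMP signals activate, and most of their mRNAs are short-lived. In beta cells glucose, calcium entry and cAMP are known inducers of Fos, Egr1 and Junb. Libraries taken after 48 h show the level held at that time and not the first wave of induction.

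Total counts ran from 10640485 to 19499216 per library. Counts were scaled to CPM, counts per 1000000 on library sizes corrected by the TMM method, and an adjusted p under 0.05 in edgeR's quasi-likelihood test, Benjamini-Hochberg adjusted over the 16808 genes, is the threshold for every call below. All 10 beta cell markers were detected, with a summed level of 61050 to 84680 CPM in DMSO, 34630 to 39440 with the inhibitor, 62710 to 63130 with loperamide and 26780 to 31580 with both. Macrophage markers (7 genes) summed to 2.24 to 3.58, 19.1 to 19.5, 1.37 to 1.80 and 4.35 to 5.06 CPM in the same order. Most of that sum was Cd68, with means of 2.08, 17.8, 1.21 and 4.55 CPM. Csf1r came next, with 0.576, 1.12, 0.306 and 0.0753 CPM, while Ptprc stayed at or under 0.0366 CPM on average in each group. Alpha cell markers (5 genes) summed to 2615 to 3834, 1817 to 2445, 394 to 722 and 865 to 1188 CPM, and acinar markers summed to at most 0.438 CPM. The part of these marker differences in the results was not tested, and in bulk RNA fewer cells of a type and less RNA per cell cannot be told apart. Counts on the mitochondrial chromosome made up 1.40% to 1.94% of DMSO libraries and 2.38% to 3.30% of FoxOi_Loperamide libraries, with the single agents between 1.77% and 2.80%.

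In the deposited table (GRCm38) Fos lies at chr12:85473890-85477273 on the plus strand, Fosb at chr7:19302696-19310051 on the minus strand, Fosl1 at chr19:5447547-5455946 on the plus strand and Fosl2 at chr5:32135801-32157842 on the plus strand. Jun lies at chr4:95049034-95052222 on the minus strand, Junb at chr8:84976910-84978718 on the minus strand and Jund at chr8:70698949-70700616 on the plus strand. Ier3 lies at chr17:35821684-35822923 and Myc at chr15:61985391-61990374, both on the plus strand. Jun and Jund are single-exon genes in the GENCODE M21 annotation. All 10 are protein-coding.

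FOS and JUN proteins are known to act on their own promoters, so the stretches before the starts of Jun, Fos, Fosb and Junb, whose levels followed different patterns across the groups, are shown with the matches to AP-1, CRE and FOXO letters and the TATA box. The RefSeq promoter table (GRCm38.p6) held 7 of the 10 members; Fosl1, Egr1 and Myc had no entry. The sequences run 5′ to 3′ on the gene's strand and stop at the start of the gene in RefSeq or in the deposited table, whichever comes first. Capitals mark the CRE core TGACG (a part of the full CRE TGACGTCA), the AP-1 variant TGACATCA, the FOXO letters GTAAACA read on either strand, and TATAAA.
Jun, chr4:95052223-95052472, minus strand: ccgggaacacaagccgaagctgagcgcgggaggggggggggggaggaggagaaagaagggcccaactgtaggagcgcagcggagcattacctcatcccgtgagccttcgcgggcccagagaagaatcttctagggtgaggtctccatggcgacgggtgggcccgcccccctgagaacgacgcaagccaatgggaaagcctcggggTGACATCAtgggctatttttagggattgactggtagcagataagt
Fos, chr12:85473640-85473889, plus strand: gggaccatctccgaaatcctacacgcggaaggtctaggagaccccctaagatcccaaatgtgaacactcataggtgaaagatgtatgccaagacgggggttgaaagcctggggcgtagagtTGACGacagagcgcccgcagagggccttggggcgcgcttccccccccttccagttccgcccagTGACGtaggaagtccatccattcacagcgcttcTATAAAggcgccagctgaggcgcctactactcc
Fosb, chr7:19310052-19310295, minus strand: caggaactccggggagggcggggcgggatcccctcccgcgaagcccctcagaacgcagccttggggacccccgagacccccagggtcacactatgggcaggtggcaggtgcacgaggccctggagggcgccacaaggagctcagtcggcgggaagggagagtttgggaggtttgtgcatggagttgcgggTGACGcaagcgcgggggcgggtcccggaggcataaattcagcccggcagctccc
Junb, chr8:84978749-84978998, minus strand: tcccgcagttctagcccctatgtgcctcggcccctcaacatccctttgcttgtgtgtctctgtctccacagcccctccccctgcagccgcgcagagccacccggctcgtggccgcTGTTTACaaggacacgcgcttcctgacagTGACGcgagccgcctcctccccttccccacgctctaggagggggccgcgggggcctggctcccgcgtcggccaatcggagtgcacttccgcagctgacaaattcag
Positions count back from the RefSeq start. The Jun stretch holds TGACATCA at -45, letters that 2.93% of 32851 RefSeq promoter windows of 250 bases hold on either strand; this motif was added with the Jun promoter in view. The Fos stretch holds TGACG at -129 and -66 and TATAAA at -33, the Fosb stretch holds TGACG at -60, and the Junb stretch holds TGACG at -106. TGACG occurs in 17.8% of the windows and TATAAA in 12.4%. The reverse complement of GTAAACA, present in 3.17% of windows, occurs at -135 in the Junb stretch and in none of the other 6 windows. The consensus AP-1 letters TGACTCA (4.46% of windows), the full CRE (1.55%), the E-box CACGTG (6.02%), the EGR letters GCGTGGGCG (0.536%), the ETS letters CCGGAAG (6.91%) and a CArG box (1.47%) occur in none of the 7. The GC box GGGCGG, in 32.7% of windows and not capitalised here, occurs in 5 of the 7. The Jund window (chr8:70697489-70697738) ends well before the start of Jund given above (70698949), and the Fosl2 window overlaps Fosl2 as placed above. For Jund and Fosl2 the window is thus not the stretch just before that start. Bases further upstream than these 250-base windows were not searched, so an absence does not extend to them. These are letter matches in short windows and not measured binding.

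With the inhibitor alone, 8 of the 10 members were called higher than DMSO, 1 fell and 1, Fos, did not pass the test. Over all genes tested, 20.7% were called higher and 20.3% lower. Since the members were chosen with earlier results of these data known, their counts beside such shares are descriptions. Fosl1 passed the filter through the inhibitor group alone, so that it was bound to be higher there than in any other group. Without it, 7 of the other 9 rose and 1 fell. The median log2 fold change of the 10, Fosl1 included, was 1.17, against 0.01 over all genes.

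Fos, which encodes the founding FOS protein, had 37.3, 67.5 and 66.7 CPM in DMSO, 61.9, 63.1 and 73.0 with the inhibitor, 65.1, 82.1 and 150.5 with loperamide and 81.0, 84.0 and 98.1 with both. DMSO replicate 1 was the lowest of all 12 libraries and loperamide replicate 3 the highest, and the inhibitor and loperamide groups each overlapped DMSO while the combined group did not. The log2 fold change against DMSO was 0.21 ± 0.29 (SE) for the inhibitor (adjusted p = 0.596), 0.80 ± 0.29 for loperamide (adjusted p = 0.0542) and 0.62 ± 0.29 for both (adjusted p = 0.102). In the fit with the replicate block the loperamide difference passed, at 0.77 (adjusted p = 0.0342), and all 3 same-numbered pairs were higher. Without DMSO replicate 1 the inhibitor value became -0.06.

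Fosb encodes a FOS protein whose truncated splice form accumulates under repeated stimulation. It had 7.9, 8.2 and 10.2 CPM in DMSO, 23.8, 28.7 and 24.1 with the inhibitor, 3.5, 5.0 and 6.5 with loperamide and 6.0, 8.3 and 8.2 with both. The 3 inhibitor libraries lay above all others and the 3 loperamide libraries below all DMSO libraries, while the combined group overlapped DMSO and loperamide. Fosb rose 2.92-fold with the inhibitor (log2 1.54 ± 0.17, adjusted p = 6.67e-06) and fell 1.72-fold with loperamide (log2 -0.79 ± 0.20, adjusted p = 0.00744). Against DMSO the combination gave a log2 value of -0.23 ± 0.18 (adjusted p = 0.335).

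Fosl1 encodes FRA-1, a FOS protein without the transactivation domain of FOS that is prominent in migrating and transformed epithelial cells. It had 205, 244 and 154 counts with the inhibitor (11.9, 13.4 and 7.9 CPM), against 11, 7 and 4 counts in DMSO, 0, 1 and 4 with loperamide and 11, 3 and 4 with both. Inhibitor libraries stood apart from all others, and the remaining 9 held at most 11 counts each. The count of 0 in loperamide replicate 1 allows up to 3 counts. The fitted difference between inhibitor and DMSO was 4.49 on the log2 scale, given as a description with no test, since Fosl1 entered the table through the inhibitor libraries alone. Loperamide against DMSO, 5 counts against 22 in all, gave -1.82 ± 0.79 (adjusted p = 0.0939), which passed only with the replicate block (-1.77, adjusted p = 0.0373) and in 3 other settings. Ccdc85b, a gene on the opposite strand that overlaps Fosl1, had 17.1 ± 0.85 CPM in DMSO and 28.2 ± 1.41 with the inhibitor (SD, n = 3). The strand setting of the counting is not given in the sources used here, so that reads of the overlap cannot be assigned to one of the pair with certainty.

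Fosl2, which encodes FRA-2, had 32.0, 28.9 and 52.6 CPM in DMSO, 91.9, 104 and 112 with the inhibitor, 21.4, 18.2 and 22.1 with loperamide and 47.5, 50.3 and 52.0 with both. The inhibitor group lay above and the loperamide group below all DMSO libraries, and DMSO replicate 3 stood high enough to overlap the combined group. Fosl2 rose 2.72-fold with the inhibitor (log2 1.44 ± 0.18, adjusted p = 2.04e-05) and fell 1.83-fold with loperamide (log2 -0.87 ± 0.18, adjusted p = 0.00262). The combination stood at 0.40 ± 0.18 against DMSO (adjusted p = 0.0756), and passed with the replicate block (0.43, adjusted p = 0.00546) and without DMSO replicate 3 (0.70, adjusted p = 0.000123).

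**Figure D1:**
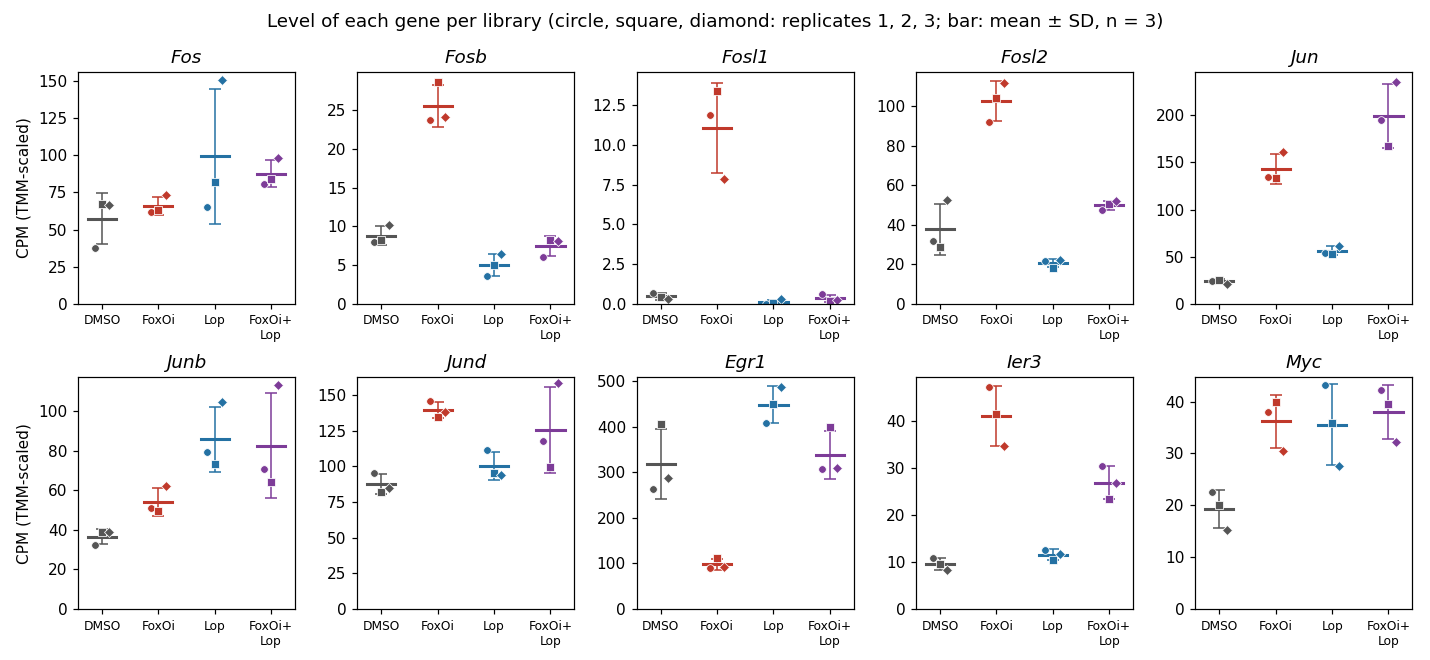
Level of each of the 10 genes in CPM (linear axes from 0) in the 12 libraries; circles, squares and diamonds are replicates 1, 2 and 3, and bars give the mean ± SD of 3 libraries. Fosb, Fosl1 and Fosl2 peak with the inhibitor alone, Jun with both compounds, and Egr1 is lowest with the inhibitor alone.

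Jun, the strongest transactivator of its family, had 24.4, 25.6 and 21.4 CPM in DMSO, 135, 133 and 161 with the inhibitor, 53.8, 53.3 and 61.8 with loperamide and 195, 167 and 235 with both. No 2 of the 4 groups overlapped. Jun rose 6.01-fold with the inhibitor (log2 2.59 ± 0.13, adjusted p = 4.02e-09), 2.37-fold with loperamide (log2 1.24 ± 0.13, adjusted p = 6.99e-06) and 8.37-fold with both (log2 3.07 ± 0.13, adjusted p = 7.23e-10). The antisense gene Junos had at most 0.465 CPM in any library.

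Junb, a JUN protein that often restrains JUN at shared sites, had 32.2, 38.8 and 38.7 CPM in DMSO, 50.9, 49.4 and 62.2 with the inhibitor, 79.5, 73.1 and 104 with loperamide and 70.5, 64.1 and 113 with both. DMSO was lowest, the inhibitor group next, and the loperamide and combined groups overlapped. Junb rose 2.34-fold with loperamide (log2 1.23 ± 0.20, adjusted p = 0.000564) and 2.26-fold with both (log2 1.17 ± 0.20, adjusted p = 0.000427). Its smaller rise with the inhibitor (log2 0.57 ± 0.20, adjusted p = 0.0395) was lost when any 1 of the 6 libraries was left out (adjusted p 0.0518 to 0.149).

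Jund, the most constantly expressed JUN gene, had 95.3, 82 and 85.1 CPM in DMSO, 146, 135 and 138 with the inhibitor, 111, 95.4 and 93.7 with loperamide and 118.2, 99.4 and 159 with both. Inhibitor libraries lay above all DMSO and loperamide libraries, and the combined group, with its replicate 3 the highest of all, overlapped both single agents. Jund rose 1.60-fold with the inhibitor (log2 0.67 ± 0.14, adjusted p = 0.00111) and 1.43-fold with both (log2 0.52 ± 0.14, adjusted p = 0.00608), and stood at 0.19 ± 0.14 with loperamide (adjusted p = 0.306). Gm11175 on the opposite strand of Jund had at most 2.05 CPM in any library.

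Egr1, a zinc finger factor induced by the same ERK and SRF route as Fos and encoded on chromosome 18, had 264, 406 and 287 CPM in DMSO, 90.2, 113 and 91.4 with the inhibitor, 408, 451 and 488 with loperamide and 308, 399 and 309 with both. The inhibitor group lay below all other libraries, the loperamide group above them all, and the combined group overlapped DMSO. Egr1 fell 3.25-fold with the inhibitor (log2 -1.70 ± 0.16, adjusted p = 2.04e-06), the only member called lower there. It rose with loperamide by 0.49 ± 0.16 on the log2 scale (adjusted p = 0.0272). This was no longer called without DMSO replicate 1 (adjusted p = 0.126) or 3 (0.0978) or loperamide replicate 2 (0.0644) or 3 (0.0937). With both the value was 0.09 ± 0.16 (adjusted p = 0.683).

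Ier3, an early response gene linked to cell survival and ERK signalling, had 10.9, 9.5 and 8.4 CPM in DMSO, 47.2, 41.5 and 34.6 with the inhibitor, 12.6, 10.4 and 11.8 with loperamide and 30.4, 23.4 and 26.8 with both. The inhibitor libraries were highest, the combined group next, and the loperamide and DMSO groups overlapped. Ier3 rose 4.26-fold with the inhibitor (log2 2.09 ± 0.14, adjusted p = 5.70e-08) and 2.79-fold with both (log2 1.48 ± 0.15, adjusted p = 1.22e-06), with 0.27 ± 0.15 for loperamide (adjusted p = 0.209).

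Myc, a driver of growth and ribosome production, had 22.6, 20.2 and 15.3 CPM in DMSO, 38.0, 40.0 and 30.5 with the inhibitor, 43.2, 35.9 and 27.5 with loperamide and 42.3, 39.6 and 32.3 with both. The 3 treated groups overlapped each other and lay above DMSO. Myc rose by 0.90 ± 0.18, 0.87 ± 0.18 and 0.97 ± 0.18 on the log2 scale in that order (adjusted p = 0.00102, 0.00213 and 0.000484). Between the treated groups its log2 differences were 0.10 or less (adjusted p of 0.672 or more).

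Loperamide alone gave 4 members called higher (Jun, Junb, Egr1 and Myc), 2 called lower (Fosb and Fosl2) and 4 not called, with a median log2 fold change of 0.38 against 0.02 over all genes. The background was 16.1% of genes higher and 15.8% lower. The combination gave 5 higher (Jun, Junb, Jund, Ier3 and Myc) and none lower, with a median of 0.57 against 0.01, where 22.3% of all genes were called higher and 23.2% lower. In edgeR 0 of the 10 were lower even at an unadjusted p under 0.05, and DESeq2 called none lower. These comparisons share the DMSO libraries.

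**Figure D2:**
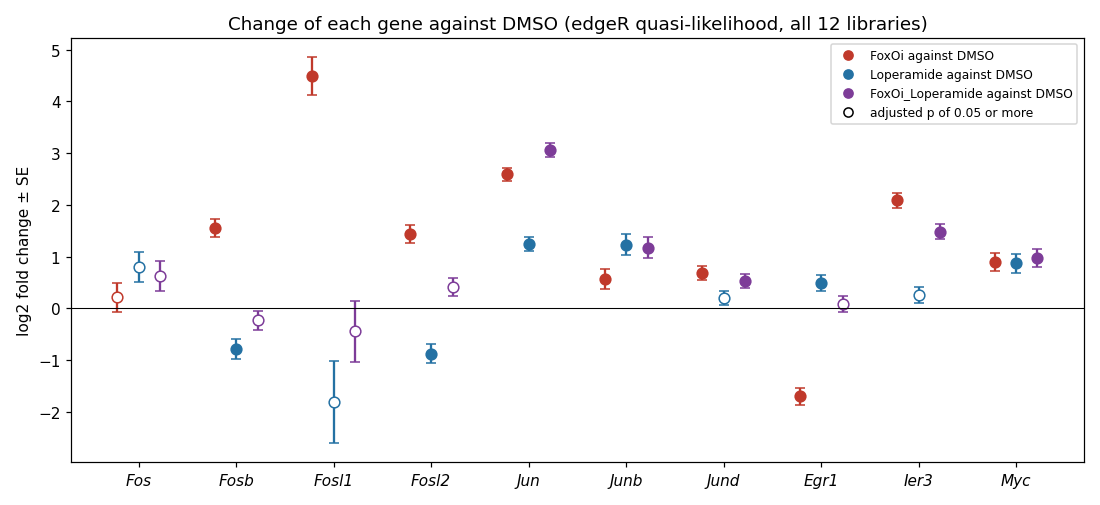
Log2 fold change ± SE of each gene against DMSO for the inhibitor (red), loperamide (blue) and both (purple), from the edgeR fit on 12 libraries; filled points have an adjusted p under 0.05. Jun, Junb and Myc lie above 0 in all 3 comparisons, and Fosb and Fosl2 lie on opposite sides of 0 for the inhibitor and loperamide.

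Set against each other, the inhibitor group held 6 members called higher than loperamide (Fosb, Fosl1, Fosl2, Jun, Jund and Ier3) and 2 called lower (Egr1 and Junb), against 25.5% higher and 24.1% lower over all genes. Fosl1 was bound to be among the higher, and without it 5 of the other 9 were. Fosl2 differed 4.98-fold (log2 2.32 ± 0.18), Fosb 5.03-fold (log2 2.33 ± 0.19), and Egr1 4.58-fold in the other direction (log2 -2.19 ± 0.16, adjusted p = 1.31e-07). The Junb difference (log2 -0.66 ± 0.20, adjusted p = 0.0145) was lost without FoxOi replicate 2 (0.0562) or loperamide replicate 3 (0.0674).

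Adding loperamide to the inhibitor lowered 4 members (Fosb, Fosl1, Fosl2 and Ier3) and raised 3 (Jun, Junb and Egr1), where 11.5% of all genes were called higher and 15.1% lower. Fosl1, which had entered through the inhibitor libraries and was bound to be lower elsewhere, went from 205, 244 and 154 counts to 11, 3 and 4. Without it, 3 of the other 9 fell. Fosb fell 3.42-fold (log2 -1.77 ± 0.17, adjusted p = 2.86e-06), Fosl2 2.06-fold (log2 -1.04 ± 0.17, adjusted p = 0.000501) and Ier3 1.53-fold (log2 -0.61 ± 0.13, adjusted p = 0.0033). Egr1 rose 3.46-fold (log2 1.79 ± 0.16, adjusted p = 1.96e-06). The rise of Jun (log2 0.48 ± 0.12, adjusted p = 0.00885) was lost without FoxOi_Loperamide replicate 3, the highest Jun library (log2 0.34, adjusted p = 0.0518). That of Junb (log2 0.61 ± 0.20, adjusted p = 0.0387) was lost without the same library (0.31, adjusted p = 0.162), FoxOi replicate 1 (0.0856) or FoxOi replicate 2 (0.129).

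Adding the inhibitor to loperamide raised Jun 3.54-fold (log2 1.82 ± 0.13, adjusted p = 9.70e-08), Fosl2 2.42-fold (log2 1.28 ± 0.18, adjusted p = 0.000106), Ier3 2.32-fold (log2 1.22 ± 0.15, adjusted p = 1.45e-05) and Fosb 1.47-fold (log2 0.56 ± 0.20, adjusted p = 0.0381), and none of the 10 was called lower by edgeR. At an unadjusted p under 0.05, 1 (Egr1) was lower, which DESeq2 also called (adjusted p = 0.0495). Over all genes 18.4% were called higher and 20.5% lower. The call of Fosb was lost without loperamide replicate 1 (0.154) or 2 (0.0948) or FoxOi_Loperamide replicate 2 (0.118) or 3 (0.110), and in limma on log2(FPKM + 1) with the filter (0.0515) and without it (0.125). With the replicate block Egr1 was called lower (log2 -0.42, adjusted p = 0.00013; without it -0.41 ± 0.16, adjusted p = 0.0539) and Jund higher (0.32, adjusted p = 0.0285; without it 0.33 ± 0.14, adjusted p = 0.0719).

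The interaction term tests whether the effect of loperamide differed with and without the inhibitor. It was positive and called for Egr1 (1.30 ± 0.22 on the log2 scale, adjusted p = 0.00209) and negative and called for Jun (-0.76 ± 0.18, adjusted p = 0.0126), Ier3 (-0.88 ± 0.20, adjusted p = 0.0127) and Fosb (-0.99 ± 0.27, adjusted p = 0.0288). Over all genes 3.66% were called with a positive and 5.82% with a negative term. For Jun, loperamide gave a log2 change of 1.24 alone and 0.48 on the inhibitor; for Fosb the values were -0.79 and -1.77, for Ier3 0.27 and -0.61, and for Egr1 0.49 and 1.79. The Fosb term was lost without any 1 of 6 libraries (adjusted p 0.0608 to 0.114): DMSO replicates 1 and 2, FoxOi replicate 2, loperamide replicates 2 and 3 and FoxOi_Loperamide replicate 1. In all, 7 of the 19 alternative settings lost the Fosb term. The Ier3 term was lost without DMSO replicate 2 (0.051). With the replicate block the terms of Myc (-0.80, adjusted p = 5.05e-06) and Junb (-0.62, adjusted p = 0.00174) were called as well. So was that of Fosl1 (-3.17, against -3.12 without the block), which rests on the inhibitor libraries that brought it into the table and on a loperamide group with 5 counts in all.

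**Figure D3:**
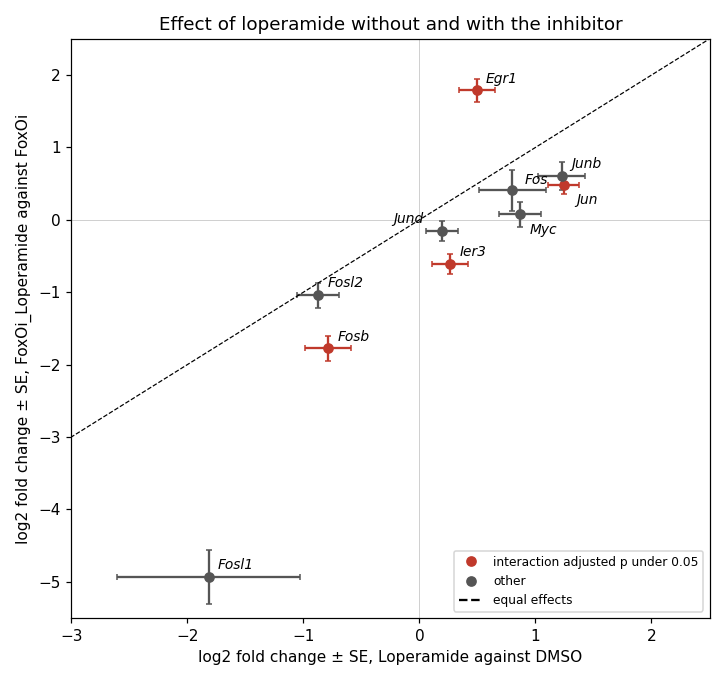
Log2 fold change ± SE of loperamide against DMSO (horizontal) and of FoxOi_Loperamide against FoxOi (vertical) for each gene, with the line of equal effects; red marks an interaction adjusted p under 0.05. Egr1 lies above the line, and Fosb, Ier3 and Jun lie below it.

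Levels can be set between genes only per gene length, as the deposited FPKM values do. In DMSO, Egr1 (70.8 ± 17.5 FPKM, SD, n = 3) and Jund (52.2 ± 3.66) were the highest of the 10, followed by Fos (27.0 ± 8.34) and Junb (20.1 ± 2.26). Ier3, Myc, Jun, Fosl2 and Fosb lay between 8.45 and 2.31 FPKM, and Fosl1 at 0.254. Summed FPKM of the JUN family was 79.7 ± 1.39 in DMSO, 156 ± 7.72 with the inhibitor, 124 ± 9.11 with loperamide and 182 ± 42.2 with both. Within it, Jun made up 9.30% ± 0.87, 28.2% ± 1.74, 14.1% ± 0.79 and 34.4% ± 2.18 in that order, and Jund 65.4%, 52.9%, 48.2% and 41.0%. Summed FPKM of the FOS family was 35.4 ± 9.45, 58.9 ± 3.03, 51.1 ± 21.7 and 51.1 ± 4.42, of which Fos itself made up 75.8%, 52.4%, 90.5% and 80.9%. Fos thus held the smallest share with the inhibitor, 49.4% to 55.5% per library, below the 70.6% or more of every other library. With the inhibitor, Fosl2 held 15.5 ± 1.46, Fosb 6.67 ± 0.745 and Fosl1 5.86 ± 1.54 FPKM.

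**Figure D4:**
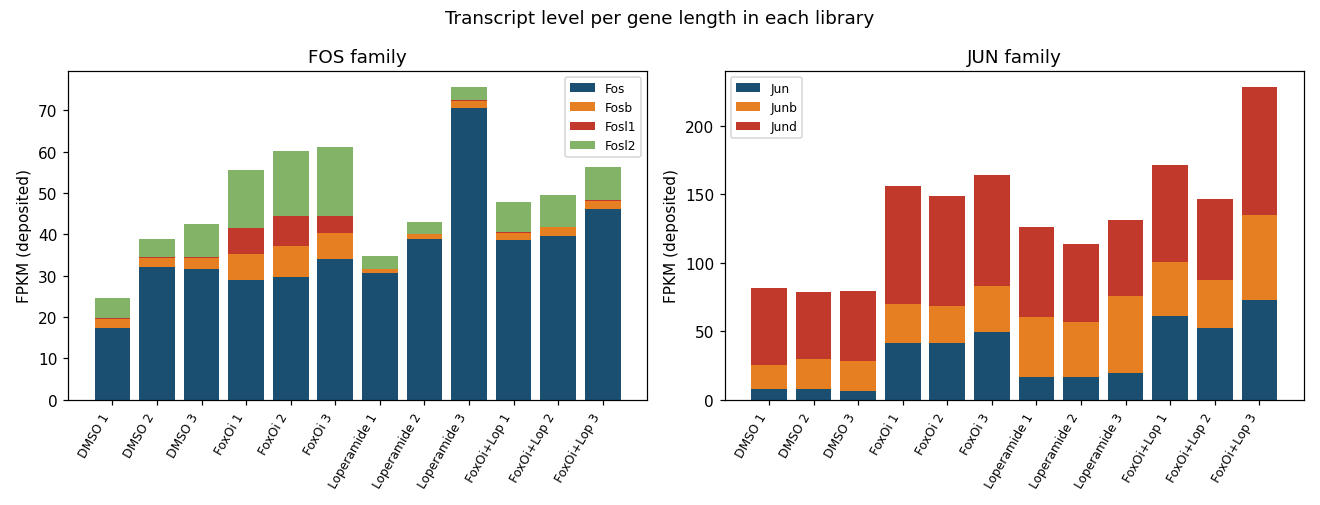
Deposited FPKM of the FOS family (left) and JUN family (right) in each of the 12 libraries, stacked by gene. Fosl1 and the widest Fosl2 and Fosb segments appear in the 3 inhibitor libraries, and the Jun segment is widest in the inhibitor and combined libraries.

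Over the 12 libraries, Pearson's r of log2(CPM + 1) described which genes ran alongside the members; the libraries share the 4 groups, so that r mostly follows group means, and no p is given. Fosb and Fosl1 ran together (r = 0.937; 0.063 within groups), and Egr1 ran opposite to Fosl1 (r = -0.956; 0.052 within groups) and Fosb (-0.923). Fos and Junb ran together both over all libraries (0.814) and within groups (0.661). Of 12365 candidate genes, the closest to Jun was Dusp8 (r = 0.992), and the closest to Ier3 was Atf3 (0.988). Myc was closest to Ciart (0.984), Ddit3 (0.977) and Trib3 (0.974). Fosb was closest to Bag2 (0.988), Fosl1 to Akr1c18 (0.990), Fosl2 to Fbln5 (0.983), Egr1 to Fam81a (0.973), Junb to Srebf2 (0.965), Jund to Rhoc (0.923) and Fos to Oip5os1 (0.896).

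Other genes of these pathways were taken from lists chosen with earlier results of these data known. Counts of listed genes beside the shares of all genes are therefore descriptions and no independent support. Of 7 other AP-1 bZIP genes 4 were tested: Atf3 rose by 3.73 ± 0.23 on the log2 scale with the inhibitor and 2.73 ± 0.23 with both, and Jdp2, a repressor of AP-1, rose by 1.19 ± 0.19 with the inhibitor and 1.41 ± 0.19 with loperamide. Of 37 other immediate early genes 32 were tested, 1 of which (Dusp2) passed the filter through the inhibitor group alone. Of the other 31, 21 rose and 1 fell with the inhibitor, where 20.7% and 20.3% of all genes did. The risers included Npas4 (2.68 ± 0.17), an activity-induced factor, Gem (2.57 ± 0.17) and Rgs2 (1.69 ± 0.10). With loperamide 6 of the 31 rose (16.1% of all genes), including Ier2 (0.91 ± 0.13) and Dusp1 (1.06 ± 0.24), and 7 fell (15.8% of all genes), including the orphan nuclear receptors Nr4a1 (-2.05 ± 0.32), Nr4a2 (-1.84 ± 0.21) and Nr4a3 (-1.96 ± 0.34). When loperamide was added to the inhibitor, 4 of the 31 rose and 15 fell (11.5% and 15.1% of all genes), including Npas4 (-3.60 ± 0.18) and Rgs2 (-2.14 ± 0.11).

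Of 28 listed AP-1 target genes 19 were tested. Of these, 5 (Mmp10, Mmp12, Mmp13, Plau and Ereg) passed the filter only with the inhibitor libraries counted. Their entry thus depended on that group, and they are left out of the counts that follow. Mmp10, Mmp13, Plau and Ereg had their highest mean with the inhibitor. Mmp12 had a higher mean with both compounds (0.744 ± 0.158 CPM, SD) than with the inhibitor (0.509 ± 0.299 CPM). Of the other 14, 8 rose and none fell with the inhibitor (0 of the 19 fell at an unadjusted p under 0.05 in edgeR or by DESeq2), including the growth factor Areg (8.39 ± 0.21), osteopontin Spp1 (4.94 ± 0.15) and haem oxygenase Hmox1 (2.39 ± 0.16). With both compounds set against the inhibitor, 10 of the 14 fell and none rose (likewise 0 at an unadjusted p or by DESeq2), including Spp1 (-7.56 ± 0.18), Areg (-4.07 ± 0.15) and the urokinase receptor Plaur (-4.83 ± 0.26). With loperamide alone 3 of the 14 rose and 5 fell. Over all genes, 20.7% were called higher and 20.3% lower with the inhibitor, and 16.1% and 15.8% with loperamide. With both compounds set against the inhibitor these shares were 11.5% and 15.1%. Of 11 tested EGR1 targets, 5 rose (45.5%) and 3 fell (27.3%) with the inhibitor. The risers included Nab1 (0.92 ± 0.09), Tgfb1 (0.96 ± 0.10) and Dusp4 (1.57 ± 0.26). Dusp6, an ERK phosphatase, fell with the inhibitor (-0.85 ± 0.12) and with loperamide (-3.20 ± 0.15). With both compounds set against the inhibitor, where Egr1 itself was higher, 5 of the 11 were called lower and 0 higher. Sphk1 and Tgfb1 stand on both target lists.

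Of all genes, 20.7% were called higher and 20.3% lower with the inhibitor, 16.1% and 15.8% with loperamide, and 22.3% and 23.2% with both. Of 20 MAP kinase genes, 4 rose (20%) and 3 fell (15%) with the inhibitor and 5 rose (25%) and 1 fell (5%) with loperamide, shares that lie near or below those of all genes except for the rises with loperamide. Of 12 SRF, ELK and CREB genes, 3 rose (25%) and 2 fell (16.7%) with the inhibitor, near the shares of all genes, among the former the ETS factor Elk3 (0.88 ± 0.12), and with both compounds against the inhibitor Elk3 fell by 2.71 ± 0.13. Of 12 tested genes of AP-1 turnover and partners, 5 rose (41.7%) and 1 fell (8.33%) with the inhibitor, led by Mafk (1.48 ± 0.10). Of 26 MYC targets, 14 rose (53.8%) and 2 fell (7.69%) with the inhibitor, 12 rose (46.2%) and 5 fell (19.2%) with both, and none rose and 12 fell (46.2%) with loperamide (1 rose at an unadjusted p under 0.05, 0 by DESeq2). Myc itself was called higher in all 3. Nucleolin Ncl rose by 0.82 ± 0.09 with the inhibitor and spermidine synthase Srm fell by 1.19 ± 0.13 with loperamide. Of 10 MYC network genes, 1 (Mycl) passed the filter only with the inhibitor libraries counted. Its mean was alike in DMSO (0.787 CPM) and with the inhibitor (0.796 CPM). Of the other 9, 1 rose and 5 fell with the inhibitor, and 3 rose and 2 fell with loperamide. Among these the MAX partner Mxd4 fell by 1.52 ± 0.11 with the inhibitor, and Mxi1, a MYC antagonist, rose by 1.20 ± 0.09 with loperamide.

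**Figure D5:**
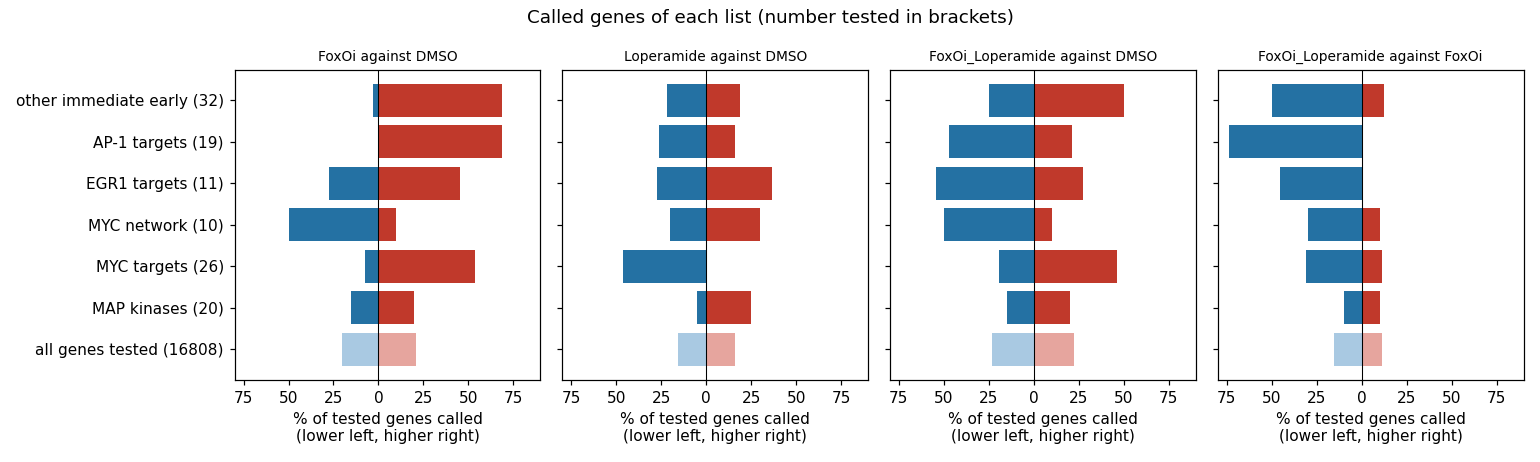
Share of the tested genes of each list called higher (red, right) and lower (blue, left) in 4 comparisons, with all 16808 genes in pale colours; the number tested stands in brackets. MYC targets are called mostly higher with the inhibitor and only lower with loperamide (12 of 26). The bars of the AP-1 targets include 5 genes that passed the filter only with the inhibitor libraries counted.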

How the data were processed

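Stranded mRNA libraries of 12 Min6 samples were sequenced as 50-base single reads, per the labels' protocols. Per the submitters' processing notes the build was GRCm38, and the tools were Picard 2.19.2, STAR 2.7.5a and DESeq2. Neither the counting program nor its strand setting is named in the sources used here. The authors deposited raw counts per gene and FPKM values. Between libraries, count divided by deposited FPKM differed by a factor common to all genes, checked on 11651 genes. This library factor lay within 0.354% of DESeq2 size factors. The gene lengths behind the FPKM values were not checked.

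Groups came from the sample titles. Counts were analysed with edgeR 4.0.16 in R 4.3.3 (filterByExpr with a minimum count of 10 by group, TMM scaling, robust quasi-likelihood fit with 1 mean per group over all 12 libraries). The 7 comparisons were the 6 pairs of groups and the interaction, with Benjamini-Hochberg adjustment over 16808 genes, and standard errors were taken from the log2 fold change and its F value. The script was tested on simulated counts. CPM use TMM-scaled library sizes. Alternatives were DESeq2 1.42.0, limma 3.58.1 on log2(FPKM + 1) or (FPKM + 0.1), RLE scaling, no filter, compared groups only, a replicate block and leaving out each library.

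Replicate numbers 1 to 3 share a library code across groups. Deviations of same-numbered libraries correlated in all 18 pairs (r 0.124 to 0.651, other pairs -0.629 to 0.194). The numbers were therefore taken as pairing the libraries in the replicate block, an alternative fit. The main fit, which gave the calls and their SE, left this pairing out. Replicates differed by more than sampling noise (chi-square per degree of freedom 5.09 to 32.2).

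Members and lists were chosen with earlier results of these data known. Named list genes are up to 3 called genes per list, direction and comparison with the smallest adjusted p. Likeness was ranked by Pearson's r of log2(CPM + 1) over 12 libraries leaving out genes whose mean CPM was under 1.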

Additional observations from a re-analysis of the deposited data

Results flagged for a closer look

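The effect of loperamide differed with and without the inhibitor for 4 members, by edgeR's test of the interaction over all 12 libraries. The term was 1.30 on the log2 scale for Egr1 (adjusted p = 0.00209), -0.76 for Jun (adjusted p = 0.0126), -0.88 for Ier3 (adjusted p = 0.0127) and -0.99 for Fosb (adjusted p = 0.0288). For Ier3 the pairs behind the term point in opposite directions, 0.27 for loperamide on DMSO, which was not called, and -0.61 on the inhibitor, which was.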

How the results depend on the processing

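Of 70 results for single members, 39 kept their direction and their side of the threshold under every alternative run (14 for a pair of groups, 19 for the interaction). Over 1027 such settings, 938 did, 34 lost a call, 40 gained one and 15 turned direction; the cause was not tested. The replicate block raised the genes called to 8179 for loperamide against DMSO (from 5370), 7504 for both against the inhibitor (from 4465) and 4334 for the interaction (from 1594), and the members called in the interaction to 7 (from 4), as did testing without the filter (7). Leaving out 1 library gave 2 to 6 members called in the interaction, 2 without DMSO replicate 2. Beside the calls named in the report, the block changed no call of a member. No turned result was called; leaving out 1 library gave these log2 ranges: Fos -0.0606 to 0.322 for the inhibitor against DMSO, -0.41 to 0.25 for both against loperamide and -0.616 to 0.045 for the interaction; Egr1 -0.0455 to 0.304 for both against DMSO; Myc -0.0363 to 0.181 for both against the inhibitor, -0.0489 to 0.266 for both against loperamide and -0.12 to 0.19 for the inhibitor against loperamide; Junb -0.35 to 0.12 for both against loperamide; Fosl2 -0.433 to 0.0356 for the interaction. On FPKM without a filter Jun lost its interaction call (adjusted p = 0.0627), Junb its rise with the inhibitor (0.103) and with both against the inhibitor (0.115), Egr1 its rise with loperamide (0.0767) and Fosb its rise with both against loperamide (0.125). Outside the inhibitor group Fosl1 had 0 to 11 counts per library, which limits its precision there. Fosl1 did not pass the filter in fits of the compared groups only where the inhibitor group was left out (3 comparisons), so these give no value.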

Other observations

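Replicate 3 of each group carried the lowest Myc level of its group (15.3, 30.5, 27.5 and 32.3 CPM) in 4 of 4 groups. In the loperamide group its Fos (150.5 CPM), Jun (61.8 CPM) and Junb (104 CPM) levels were the highest of that group. With the inhibitor its Fos (73.0 CPM), Jun (161 CPM) and Junb (62.2 CPM) levels were. With both compounds its Fos (98.1 CPM), Jun (235 CPM), Junb (113 CPM) and Jund (159 CPM) levels were. In DMSO none of these genes was highest in replicate 3 (Fos 66.7, Jun 21.4, Junb 38.7 and Jund 85.1 CPM). Within groups, Fos and Myc ran opposite over the 12 libraries (Pearson's r = -0.837, a description with no p), although over all libraries r was 0.177. Replicates that carry the same number share a library code, whose meaning the labels do not give.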
